A study of Mus musculus with 8 samples.

Results

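Prdm1, Maf, Batf, Irf4, Gata3, Rora, Tbx21, Bcl6 and Id2 encode 9 transcription regulators of effector Treg and helper T cell lineages, and their RNA levels were followed in resting and activated Treg cells with and without Foxp1. The members were the rows of the deposited count table that carry these gene symbols, 9 of 27594 genes, and all 9 were among the 14540 genes that passed the filter on low counts and were tested. RNA sequencing was done on rTreg cells (resting, sorted as CD4+YFP+ cells low in CD44) and aTreg cells (activated, sorted as CD4+YFP+ cells high in CD44) taken from spleens and peripheral lymph nodes of C57BL/6 mice aged 6 to 8 weeks. WT cells came from Foxp3-YFP-Cre mice and Foxp1-deficient cells from Foxp1fl/fl Foxp3-YFP-Cre mice, so that all 4 groups carried the YFP-Cre knock-in at Foxp3 and the Foxp1-deficient groups carried in addition the floxed Foxp1 alleles that Cre deletes in cells with Foxp3 expression. Each group had 2 libraries, and the labels do not state whether the replicates were separate mice or pools, so the p-values measure the spread between these libraries.

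As background, Treg cells that have met antigen leave the resting state and take up an effector programme, in which Irf4 and Batf bind DNA together downstream of the T cell receptor and Blimp-1, the product of Prdm1, acts as a repressor needed for effector functions such as interleukin-10 production. The lineage factors of helper T cells are also used by Treg cells: T-bet (Tbx21) is the Th1 factor, GATA3 the Th2 factor, and Bcl-6 the factor of follicular helper T cells that opposes Blimp-1. Rora encodes a nuclear receptor that takes part in Th17 development, c-Maf is an AP-1 family factor that takes part in several helper lineages, and Id2 encodes an inhibitor that pairs with E proteins and keeps them from DNA.

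The promoters of Prdm1 and Rora, the members called higher in Foxp1-deficient aTreg cells, are shown because both genes were higher in aTreg than in rTreg cells and higher again in aTreg cells without Foxp1. Each run is the 250 bases before a RefSeq transcription start on GRCm38.p6, read 5′ to 3′ on the gene's strand. The Prdm1 run lies at chr10:44458749-44458998 on the minus strand, inside the GENCODE gene model, and the Rora run at chr9:68653536-68653785 on the plus strand, directly before the first exon. Capitals mark the letters of a forkhead motif (TGTTTAC or GTAAACA) or an AP-1 motif (TGANTCA, the same on both strands).
Prdm1: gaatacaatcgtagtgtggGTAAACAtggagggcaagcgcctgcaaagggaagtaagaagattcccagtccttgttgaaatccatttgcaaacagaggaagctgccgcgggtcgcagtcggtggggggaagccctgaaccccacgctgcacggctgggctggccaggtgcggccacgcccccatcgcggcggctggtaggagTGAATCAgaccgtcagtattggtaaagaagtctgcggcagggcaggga
Rora: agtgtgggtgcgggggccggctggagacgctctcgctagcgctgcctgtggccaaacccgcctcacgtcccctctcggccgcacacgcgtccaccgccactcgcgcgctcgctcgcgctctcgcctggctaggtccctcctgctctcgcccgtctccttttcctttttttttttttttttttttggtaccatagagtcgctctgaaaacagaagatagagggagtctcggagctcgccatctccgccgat

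The forkhead letters of Prdm1 begin 231 bases before the start and the AP-1 letters 48 bases before it. Of the 9 promoters listed for 8 of the members, with 2 for Bcl6 and without Maf, the Prdm1 promoter was the one that held either motif. Among all 32851 promoters of the same length, 3.17% held the forkhead letters and 6.75% the AP-1 letters. A GATA motif (AGATAA or TTATCT), found in 9.99% of all promoters, was in the Batf promoter alone among the members, 245 bases before the start at chr12:85686470-85686719. The letters of the ROR half-site (AGGTCA or TGACCT, in 14.0% of all promoters) and of the T-box (GGTGTGA or TCACACC, in 3.33%) were in none of the 9. The matches describe letters in these windows and were not tested as binding sites.

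The libraries held between 6373170 and 15268623 counts on genes, and the floor of 3 counts corresponds to between 0.196 and 0.471 CPM. The targeted gene, Foxp1, was at 353 and 384 CPM in WT rTreg cells against 342 and 338 CPM without Foxp1, and at 234 and 230 CPM in WT aTreg cells against 126 and 102 CPM without Foxp1 (CPM is the count scaled by the library total and the TMM factor, with replicates 1 and 2 in this order throughout). The whole-gene count of Foxp1 therefore did not check the rTreg labels, since the genotypes differed by -0.12 on the log2 scale there (adjusted p = 0.460, quasi-likelihood test of edgeR, Benjamini-Hochberg adjusted). Foxp3 lay between 429 and 646 CPM in all 8 libraries, and all 8 Treg and CD4 T cell markers had counts in each. Cd44 was higher in aTreg than in rTreg cells, as the sort sets. The replicate numbers also separated the sexes: Xist had at most 3 counts in each replicate 1 library and at least 15098 in each replicate 2 library, and within a replicate number the sex was the same in all 4 groups.

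All 9 factors were higher in WT aTreg than in WT rTreg cells, and the libraries of the subsets did not overlap for any of them, where 30.1% of all genes tested were higher without overlap. At an adjusted p-value under 0.05 and at least 2-fold, 8 of 9 were called higher, where 9.50% of all genes tested were called higher. Gata3 had a log2 fold change of 1.00, a fold of 1.996 that lay just under the fold threshold, with an adjusted p of 4.65e-05 (quasi-likelihood test of edgeR, Benjamini-Hochberg adjusted). In Foxp1-deficient cells all 9 factors were called higher in aTreg than in rTreg cells, where 11.3% of all genes tested were called higher, and again without overlap, where 31.4% were. The median log2 fold change of the 9 was 1.79 in WT and 2.17 in Foxp1-deficient cells, beside -0.0046 and -0.018 over all genes tested. The members were named as effector and lineage factors, so the direction itself follows from the choice. In bulk samples more cells with a transcript and more transcript per cell cannot be told apart.

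**Figure D1:**
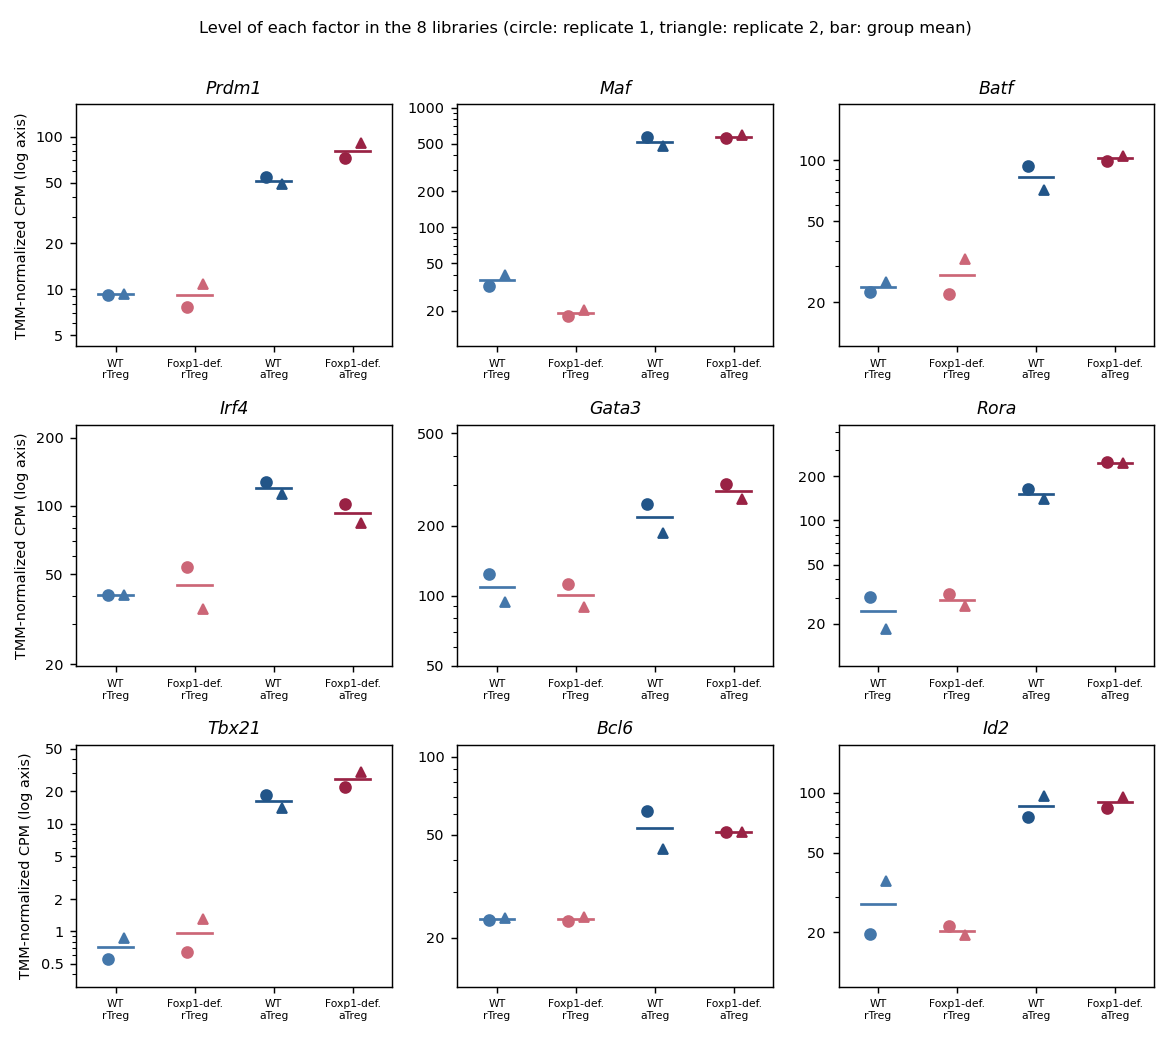
Level of each of the 9 factors in the 8 libraries, as TMM-normalized CPM on a log axis, by group (circle, replicate 1; triangle, replicate 2; bar, group mean; Foxp1-def., Foxp1-deficient). Every aTreg library lies above every rTreg library for each factor, Maf is lower in both Foxp1-deficient rTreg libraries than in both WT ones, and Prdm1 and Rora are higher in both Foxp1-deficient aTreg libraries than in both WT ones.

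Tbx21, the Th1 factor, had the largest rise of the 9 in WT cells. It was close to the floor in rTreg cells, with 6 and 11 counts in WT and 4 and 18 counts in Foxp1-deficient libraries. In WT aTreg cells it had 169 and 221 counts, or 18.5 and 14.2 CPM, and in Foxp1-deficient aTreg cells 260 and 419 counts, or 21.8 and 30.1 CPM. The log2 fold change between subsets was 4.49 (95% interval 3.69 to 5.29) in WT and 4.60 (3.84 to 5.35) in Foxp1-deficient cells, at adjusted p = 8.23e-05 and 3.67e-05 (edgeR, Benjamini-Hochberg adjusted). NK cells also use T-bet, and the summed level of 5 NK cell markers was 0 to 0.628 CPM in WT rTreg cells against 2.85 to 5.83 CPM in WT aTreg cells. In Foxp1-deficient cells the sum was 0.478 to 0.939 CPM in rTreg and 2.59 to 3.52 CPM in aTreg cells. Klrb1c had 25 and 41 counts, Ncr1 0 and 15 counts, and Klra8 0 and 10 counts in the WT aTreg libraries. The part of these cells in the level of Tbx21 was not tested.

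Maf had the next largest rise. Its level was 32.5 and 39.8 CPM in WT rTreg cells against 564 and 473 CPM in WT aTreg cells, a log2 fold change of 3.84 (95% interval 3.55 to 4.14, adjusted p = 3.63e-06, edgeR, Benjamini-Hochberg adjusted). From 18.3 and 20.2 CPM in Foxp1-deficient rTreg cells it reached 553 and 590 CPM in Foxp1-deficient aTreg cells, a log2 fold change of 4.88 (SE 0.14, adjusted p = 1.74e-06 from the same edgeR test).

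Rora and Prdm1 rose by similar amounts. Rora had 30.3 and 18.5 CPM in WT rTreg cells against 162 and 140 CPM in WT aTreg cells, a log2 fold change of 2.65 (95% interval 2.32 to 2.99). Prdm1 had 9.21 and 9.35 CPM in WT rTreg cells against 54.5 and 48.7 CPM in WT aTreg cells, a log2 fold change of 2.47 (2.11 to 2.84). In Foxp1-deficient cells the log2 fold change between subsets was 3.10 for Rora and 3.09 for Prdm1. The 2 factors of T cell receptor signaling rose less: Batf by 1.79 in WT and 1.86 in Foxp1-deficient cells and Irf4 by 1.57 and 1.09 on the log2 scale. All of these changes had adjusted p-values of at most 0.000382 in the quasi-likelihood test of edgeR, Benjamini-Hochberg adjusted.

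Bcl6 and Gata3 had the smallest rises in WT cells, and Id2 lay between them and Batf. Id2 differed by 1.63 on the log2 scale between the subsets in WT and by 2.17 in Foxp1-deficient cells. Bcl6 had 23.4 and 23.7 CPM in WT rTreg cells against 61.9 and 44.2 CPM in WT aTreg cells, a log2 fold change of 1.15, and the WT aTreg libraries differed from each other more than the rTreg libraries did. For Gata3 the WT log2 fold change was 1.01 in the first replicate pair and 0.99 in the second, and in Foxp1-deficient cells it was 1.48 (95% interval 1.32 to 1.64). B cells of germinal centres also express Bcl6, and the summed level of 7 B cell markers was 8.29 to 9.11 CPM in WT rTreg and 19.5 to 20.6 CPM in WT aTreg cells. Of the 3 B cell markers tested, 2 were called higher in WT aTreg cells, where 9.50% of all genes tested were. Cd79b had 47 and 68 counts in WT rTreg and 144 and 247 counts in WT aTreg cells, and Pax5 had 1 and 1 against 8 and 9 counts. Cd79a, at 38 and 44 against 20 and 49 counts, did not rise relative to the library totals. Ms4a1 had at most 4 counts in any library. Innate lymphoid cells use Gata3, Rora and Id2, and the summed level of 4 of their markers was 154 to 327 CPM in WT rTreg and 270 to 501 CPM in WT aTreg cells. Nearly all of it was Il7r, which T cells also express, while Kit had 18 to 35 counts and Il22 at most 3 counts in any library. The part of either cell type in these levels was not tested.

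**Figure D2:**
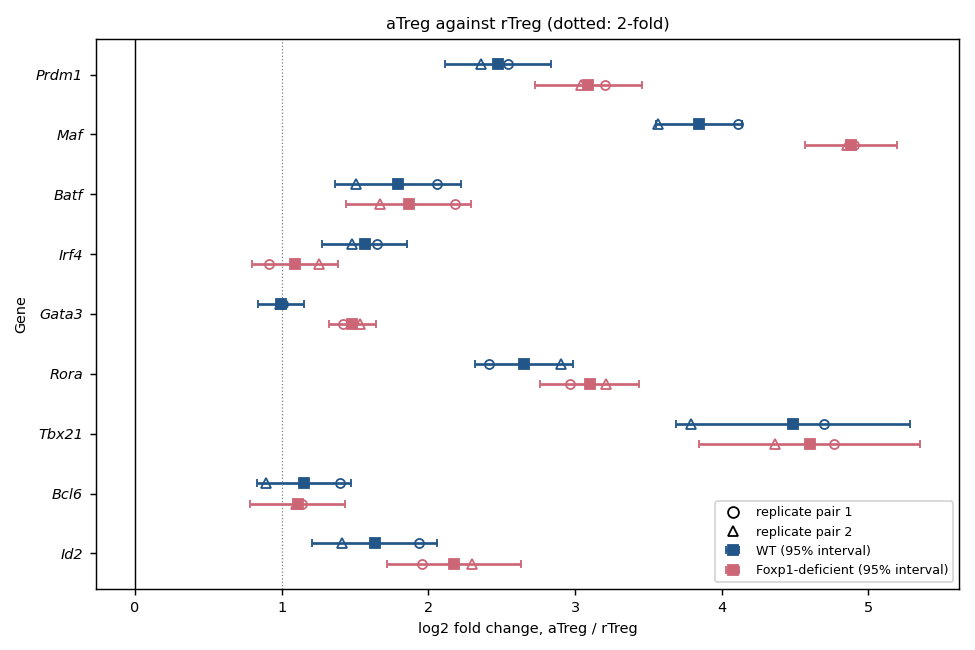
Log2 fold change of aTreg against rTreg cells for the 9 factors in WT and Foxp1-deficient cells, as the edgeR estimate with its 95% interval (squares and bars) and the value in each replicate pair (open circle, pair 1; open triangle, pair 2). The estimates run from 1.00 for Gata3 to 4.49 for Tbx21 in WT cells and from 1.09 for Irf4 to 4.88 for Maf in Foxp1-deficient cells, and every pair lies above 0.

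Levels of different factors were compared per length, as FPKM. In WT rTreg cells Gata3 was the most abundant at 27.2 ± 5.91 FPKM (SD, n = 2), followed by Batf at 24.5 ± 1.45 and Id2 at 21.6 ± 8.65 FPKM, and the ranges of these 3 overlapped. Irf4 came next at 8.50 ± 0.17 FPKM, then Maf at 4.34 ± 0.51, Bcl6 at 3.48 ± 0.048, Rora at 1.86 ± 0.68, Prdm1 at 1.65 ± 0.022 and Tbx21 at 0.281 ± 0.081 FPKM. Rora and Prdm1 could not be ranked beyond the spread between replicates.

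In WT aTreg cells the order of the means was Batf, Id2, Maf, Gata3, Irf4, Rora, Prdm1, Bcl6 and Tbx21, from 88.5 ± 16.8 FPKM for Batf to 6.74 ± 1.31 FPKM for Tbx21 (SD, n = 2). Each of the first 4 overlapped its neighbour, as did Prdm1 with Bcl6 and Bcl6 with Tbx21. Maf thus moved from the fifth place, at 4.34 FPKM, to the group of most abundant factors, at 64.5 ± 8.26 FPKM. In Foxp1-deficient aTreg cells Batf was highest at 107 ± 0.37 FPKM and Bcl6 lowest at 7.72 ± 0.25 FPKM, and Gata3, Id2 and Maf, at 71.1 ± 9.96, 71.0 ± 4.08 and 69.7 ± 0.99 FPKM, overlapped. The place of Batf and Id2 depends on the gene length: the FPKM values imply 955 bases for Batf and 1270 for Id2, while the merged exons of GENCODE M21 give 1406 and 2438 bases. With the GENCODE lengths Maf had the highest mean in WT aTreg cells, at 64.5 FPKM, before Batf at 60.1 and Gata3 at 56.1, and Id2 ranked 4 in both aTreg groups.

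Pairs of factors with opposing or joint roles changed their proportion within a library. The ratio of Prdm1 to Bcl6, the repressors that restrain each other, was 0.473 in both WT rTreg libraries on the FPKM scale, 1.06 and 1.32 in WT aTreg libraries, and 1.68 and 2.11 in aTreg libraries without Foxp1. Prdm1 was thus below Bcl6 in all 4 rTreg libraries and above it in all 4 aTreg libraries. The ratio of Prdm1 to Irf4 was 0.363 in both WT aTreg libraries against 0.598 and 0.906 without Foxp1.

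The ratio of Rora to Maf separated the genotypes in both subsets without overlap, at 0.588 and 0.293 in WT and 1.09 and 0.815 in Foxp1-deficient rTreg cells, and at 0.181 and 0.186 in WT against 0.282 and 0.260 in Foxp1-deficient aTreg libraries. The ratio of Gata3 to Tbx21 was between 43.0 and 140 in the rTreg libraries and between 5.38 and 8.67 in the aTreg libraries, and the genotypes overlapped in both subsets. The ratio of Maf to Batf also separated the genotypes, at 0.169 and 0.184 in WT against 0.0973 and 0.0716 in Foxp1-deficient rTreg libraries. In aTreg libraries it was 0.701 and 0.766 against 0.644 and 0.654. Maf was called lower in rTreg and Rora higher in aTreg cells, so the Rora to Maf ratio in part restates these calls. These ratios are descriptions without a test, and the share of all gene pairs that separate without overlap was not computed.

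**Figure D3:**
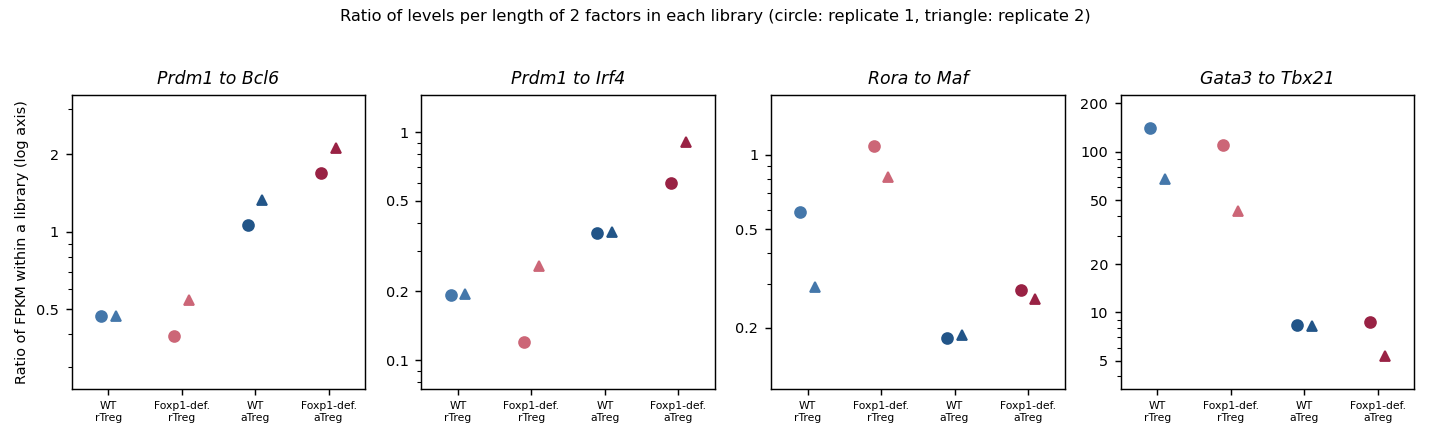
Ratio of the FPKM of Prdm1 to Bcl6, Prdm1 to Irf4, Rora to Maf and Gata3 to Tbx21 within each of the 8 libraries, on log axes (circle, replicate 1; triangle, replicate 2). Prdm1 to Bcl6 lies at or below 0.543 in the rTreg libraries and at or above 1.06 in the aTreg libraries, with both Foxp1-deficient aTreg libraries above both WT aTreg libraries.

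In rTreg cells, loss of Foxp1 went with a lower level of Maf, and 1 of the 9 factors was called. At an adjusted p under 0.05 and at least 1.5-fold, 2.70% of all genes tested were called lower and 2.90% higher. Maf had 353 and 506 counts, or 32.5 and 39.8 CPM, in WT rTreg cells against 115 and 280 counts, or 18.3 and 20.2 CPM, in Foxp1-deficient rTreg cells. Both Foxp1-deficient libraries were below both WT libraries, as for 22.3% of all genes tested, and the log2 difference was -0.82 in the first pair and -0.97 in the second. The log2 fold change was -0.90 (SE 0.13, adjusted p = 0.00639, quasi-likelihood test of edgeR, Benjamini-Hochberg adjusted), a ratio of 0.536 to WT. The call was lost when WT replicate 2, Foxp1-deficient replicate 1 or Foxp1-deficient replicate 2 was left out, where the log2 value was -0.74, -0.86 and -0.97 and adjusted p = 0.0526, 0.0529 and 0.0777 (edgeR, Benjamini-Hochberg adjusted).

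The other 8 factors were not called in rTreg cells, and the libraries of the genotypes overlapped for each of them. Id2, the inhibitor of E proteins, had 19.5 and 36.1 CPM in WT against 21.5 and 19.3 CPM in Foxp1-deficient rTreg cells, so that the WT replicates differed by more than the genotypes. Its log2 fold change was -0.47 (95% interval -0.95 to 0.014, adjusted p = 0.188, edgeR, Benjamini-Hochberg adjusted), with 0.14 in the first pair and -0.90 in the second. Without WT replicate 1 it was -0.78 and was called.

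Bcl6 had almost the same level in all 4 rTreg libraries, between 23.3 and 24.0 CPM, and a log2 fold change of 0.015 (95% interval -0.33 to 0.36). Gata3 differed by -0.10 (-0.26 to 0.057), the narrowest interval among the 9, and Prdm1 by 0.035 (-0.40 to 0.46). For Tbx21 the interval ran from -0.69 to 1.81, so that at 4 to 18 counts differences within this range could not be told apart. Rora differed by 0.26, Batf by 0.24 and Irf4 by 0.097 on the log2 scale, with adjusted p-values of at least 0.308 in the Benjamini-Hochberg adjusted edgeR test.

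In aTreg cells, Rora and Prdm1 were higher without Foxp1, 2 of the 9 factors called higher where 2.37% of all genes tested were. None was called lower, where 1.66% were. Rora had 1479 and 2177 counts, or 162 and 140 CPM, in WT aTreg cells against 2954 and 3385 counts, or 248 and 243 CPM, in Foxp1-deficient aTreg cells. The Foxp1-deficient libraries were close to each other and lay above both WT libraries. The log2 fold change was 0.71 (SE 0.13, adjusted p = 0.0196, quasi-likelihood test of edgeR, Benjamini-Hochberg adjusted), a 1.64-fold change, with 0.61 and 0.80 in the replicate pairs.

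Prdm1 had 497 and 760 counts, or 54.5 and 48.7 CPM, in WT aTreg cells against 859 and 1257 counts, or 72.0 and 90.3 CPM, in Foxp1-deficient aTreg cells. Both Foxp1-deficient libraries were above both WT libraries, and the gap was wider in the second pair. The log2 fold change was 0.65 (SE 0.13, adjusted p = 0.0277 from the same edgeR test), a 1.57-fold change, with 0.40 and 0.89 in the pairs. Without the replicate block neither gene was called and 3 of the 9 factors had an unadjusted p under 0.05 in edgeR, at the same size of change (log2 fold change 0.70 and adjusted p = 0.235 for Rora, 0.65 and 0.171 for Prdm1, edgeR, Benjamini-Hochberg adjusted). Leaving out WT replicate 2 or Foxp1-deficient replicate 2 gave 0 calls, with 0.75 and 0.53 for Rora and 0.42 and 0.50 for Prdm1. Without WT replicate 1 Prdm1 kept its call at 0.87 and Rora lost it at 0.68 (adjusted p = 0.0736), and without Foxp1-deficient replicate 1 Rora kept its call at 0.88 and Prdm1 lost it at 0.80 (adjusted p = 0.0544, edgeR, Benjamini-Hochberg adjusted).

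Markers of other cells moved with the same comparison. Plasma cells also express Prdm1 and Irf4, and the summed level of 6 plasma cell markers was 86.2 to 105 CPM in WT against 116 to 156 CPM in Foxp1-deficient aTreg cells. Of these 6 markers, 4 were higher without overlap, where 22.2% of all genes tested were, and 2 were called higher, where 2.37% were. Igkc had 52 and 85 counts in WT and 478 and 337 counts in Foxp1-deficient aTreg libraries. Ighg1 had 14 and 33 counts in WT against 133 and 72 in Foxp1-deficient aTreg libraries. Jchain had 19 and 35 against 124 and 42 counts, and Mzb1 2 and 5 against 15 and 6. Most of the sum was Xbp1, which T cells also express, with 861 and 1182 against 1093 and 1160 counts. The more restricted Sdc1 had at most 14 counts in any library. In rTreg cells the plasma cell sum was 80.4 to 97.8 CPM in WT against 131 to 156 CPM in Foxp1-deficient cells. There 3 of the 6 were called higher, where 2.90% of all genes tested were. The summed level of 6 granulocyte markers was 1.92 to 3.29 CPM in WT against 2.95 to 27.8 CPM in Foxp1-deficient aTreg cells, and that of 10 macrophage, monocyte and dendritic cell markers 6.73 to 7.79 and 11.3 to 12.7 CPM. In rTreg cells the granulocyte sum was 0 to 0.461 CPM in WT against 5.27 to 12.3 CPM in Foxp1-deficient cells. Of the 4 granulocyte markers tested, 3 were called higher in rTreg and 1 in aTreg cells. The part of these cells in the levels of Rora, Prdm1 and Maf was not tested.

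Gata3, the Th2 factor, had 249 and 186 CPM in WT aTreg cells against 302 and 259 CPM in Foxp1-deficient aTreg cells. The Foxp1-deficient libraries were above the WT ones, and the WT replicates differed by about as much as the genotype means. The log2 fold change was 0.38 (SE 0.067, adjusted p = 0.0185, edgeR, Benjamini-Hochberg adjusted), past the adjusted p alone but under 1.5-fold. By the adjusted p alone 3 of the 9 factors were higher, where 4.11% of all genes tested were. Without the replicate block the adjusted p of Gata3 was 0.526 (edgeR, Benjamini-Hochberg adjusted).

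Tbx21 stood at 18.5 and 14.2 CPM in WT against 21.8 and 30.1 CPM in Foxp1-deficient aTreg cells, and Batf 93.3 and 71.6 CPM in WT against 99.4 and 105 CPM in Foxp1-deficient aTreg cells. Neither passed the test, with log2 fold changes of 0.67 (95% interval 0.16 to 1.18, adjusted p = 0.116) and 0.31 (-0.074 to 0.70, adjusted p = 0.306, edgeR, Benjamini-Hochberg adjusted). For Tbx21 the first pair gave 0.23 and the second 1.08, and it was called without WT replicate 1, at 1.12. Irf4 was the one factor whose Foxp1-deficient aTreg libraries, at 102 and 84.2 CPM, both lay below the WT libraries, at 127 and 113 CPM. Its log2 fold change was -0.38 (-0.65 to -0.10, adjusted p = 0.104, edgeR, Benjamini-Hochberg adjusted), with -0.32 and -0.43 in the pairs.

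The libraries of the genotypes did not overlap for 6 of the 9 factors in aTreg cells, 5 higher and 1 lower, where 22.2% of all genes tested were higher and 19.6% lower without overlap. Maf, Bcl6 and Id2 overlapped. Their log2 fold changes were 0.14 (95% interval -0.12 to 0.39) for Maf, -0.028 (-0.33 to 0.27) for Bcl6 and 0.074 (-0.32 to 0.47) for Id2. The level of Maf was thus 519 ± 64.1 CPM in WT against 571 ± 26.6 CPM in Foxp1-deficient aTreg cells (SD, n = 2).

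**Figure D4:**
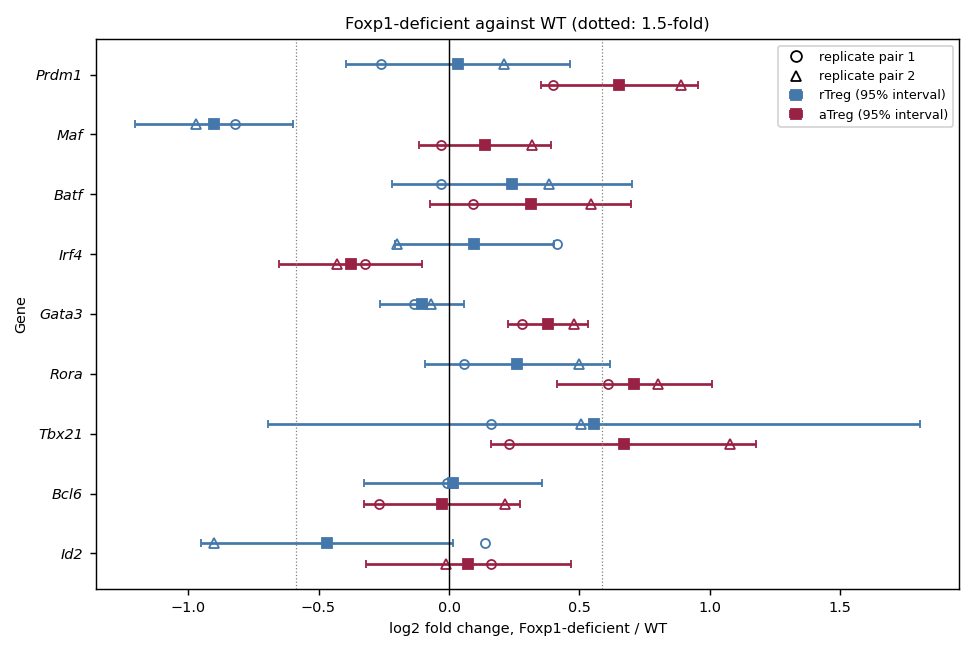
Log2 fold change of Foxp1-deficient against WT cells for the 9 factors in rTreg and aTreg cells, as the edgeR estimate with its 95% interval (squares and bars) and the value in each replicate pair (open circle, pair 1; open triangle, pair 2). Maf lies at -0.90 in rTreg cells, Rora at 0.71 and Prdm1 at 0.65 in aTreg cells, and the interval of Tbx21 in rTreg cells, from -0.69 to 1.81, is the widest.

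The difference of the genotype effects between aTreg and rTreg cells was taken from an interaction term. None of the 9 factors was called, where 0.330% of all genes tested were, and 4 had an unadjusted p under 0.05 in edgeR's quasi-likelihood test. These were Maf with a difference of 1.04 on the log2 scale (95% interval 0.64 to 1.43, adjusted p = 0.0536), Gata3 with 0.48 (0.26 to 0.71, adjusted p = 0.0822), Prdm1 with 0.62 (0.093 to 1.14, adjusted p = 0.303) and Irf4 with -0.47 (-0.88 to -0.064, adjusted p = 0.311, edgeR, Benjamini-Hochberg adjusted). DESeq2 and edgeR without the filter on low counts each called 2, Maf and Gata3, with adjusted p-values of 5.96e-05 and 0.0108 in DESeq2, and limma-voom called 0. For Rora the difference was 0.45 (-0.013 to 0.91), so that its higher level in aTreg cells was not shown to be particular to them. The same test compares the rise from rTreg to aTreg between the genotypes, so the larger rise of Maf without Foxp1, 4.88 beside 3.84, also did not pass the adjusted threshold.

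Relatives of the 9 factors in the same gene families were described from a list of 38 genes, of which 25 were tested. In WT aTreg against WT rTreg cells, 4 were called higher and 1 lower, with a median log2 fold change of -0.17. Of all genes tested, 9.50% were called higher and 2.83% lower between the WT subsets. These shares are to be set beside the WT subset counts of each later list. In Foxp1-deficient cells 4 were called higher and 2 lower between the subsets, where 11.3% and 4.39% of all genes tested were. Gata1, the erythroid relative of Gata3, was called lower, with a log2 fold change of -2.12 between WT subsets and of -1.74 between genotypes in aTreg cells (adjusted p = 0.00109, edgeR, Benjamini-Hochberg adjusted). Between genotypes 2.90% of all genes tested were called higher and 2.70% lower in rTreg cells, and 2.37% higher and 1.66% lower in aTreg cells, which are the shares to set beside the counts of each list that follows. In rTreg cells Irf8 was called higher without Foxp1 at 0.97, and 4 relatives were called lower, among them Irf5 at -1.22 on the log2 scale. Without the replicate block no relative was called in rTreg cells, by edgeR, and Gata1 remained called in aTreg cells.

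Partners and opposing factors made up a list of 40 genes, of which 38 were tested, with 8 called higher and 4 lower between the WT subsets and a median of -0.063. Without Foxp1, Fosl2, an AP-1 factor, was called higher in aTreg cells at 0.77, while Bach2, a repressor that competes with AP-1 and Batf, was called lower at -1.25 (adjusted p = 0.00347) and Jun at -0.91 on the log2 scale (edgeR, Benjamini-Hochberg adjusted). Bach2 had 2706 and 3255 counts in WT rTreg, 696 and 1533 in WT aTreg, and 488 and 454 in aTreg cells without Foxp1. Fosl2 was also called higher in rTreg cells, at 0.72, with Myb at 0.74, and Tcf4 and Ikzf3 were called lower at -0.98 and -0.69. Without the block 1 of these 38 was called in aTreg and none in rTreg cells.

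Genes of effector Treg cells followed the subset. Of 29 genes, 24 were called higher and 2 lower in WT aTreg against WT rTreg cells, where 9.50% and 2.83% of all genes tested were. The median log2 fold change of the list was 3.64, or 3.34 with the 3 genes at the floor set to their bound. The list holds Cd44, on which the cells were sorted. Il10, the gene of interleukin-10, went from 0 and 1 counts in WT rTreg to 352 and 148 counts in WT aTreg cells, which is at least 94.0-fold higher against 3 counts per library, and reached 293 and 100 counts in aTreg cells without Foxp1. Between genotypes 5 were called higher and 2 lower in aTreg cells, with Cxcr3 at 1.19 and Klrg1, a marker of terminal effector cells, at 1.15, and Ccr7 at -1.56 on the log2 scale. In rTreg cells 3 were called higher and 3 lower, with Cxcr3 at 2.33 and Il1rl1, the interleukin-33 receptor gene, at -1.94. Il1rl1 had 51 and 74 counts in WT rTreg, 9 and 21 in Foxp1-deficient rTreg, 418 and 1347 in WT aTreg and 1047 and 2223 in aTreg cells without Foxp1. Its genotype effects differed between the subsets by 2.84 on the log2 scale (adjusted p = 0.0203, edgeR, Benjamini-Hochberg adjusted). That call was lost when WT rTreg replicate 2, Foxp1-deficient rTreg replicate 1, Foxp1-deficient rTreg replicate 2 or Foxp1-deficient aTreg replicate 2 was left out, where the log2 value was 3.19, 3.05, 2.32 and 2.75 and adjusted p = 0.051, 0.0967, 0.223 and 0.129 (edgeR, Benjamini-Hochberg adjusted). Without the block the calls of the list were 1 higher and 1 lower in rTreg cells and 0 higher and 2 lower in aTreg cells, and no difference between the genotype effects was called.

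Genes associated with the helper lineages were set beside their factors. Of 16 Th1-associated genes tested, 8 were called higher between the WT subsets, and between genotypes 2 were higher in rTreg and 3 in aTreg cells and 0 lower. Il18rap, a subunit of the interleukin-18 receptor, was called higher in both, at 1.33 and 1.20 on the log2 scale, as was Cxcr3, which T-bet activates. Tbx21 itself was not called in either subset. Of 13 Th2-associated genes tested, 9 were called higher between the WT subsets, and in Foxp1-deficient aTreg cells 2 were called higher, Il1rl1 at 0.91 and Ccr4 at 0.63. In rTreg cells 2 were higher and 2 lower, the latter Il1rl1 and Il17rb, at -1.49. Il5 and Il13 did not pass the filter on low counts.

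Of 11 Th17-associated genes tested, 5 were called higher between the WT subsets. In Foxp1-deficient aTreg cells none was called higher and 2 were called lower, Il6st, the shared subunit of the interleukin-6 receptor family, at -1.29 and Ccr6 at -0.62 on the log2 scale, while Rora was called higher. Of 20 follicular genes tested, 11 were called higher between the WT subsets. In rTreg cells without Foxp1, Cxcr5, the follicular homing receptor gene, was called lower at -1.32, from 103 and 112 counts to 26 and 45, with Bcl6 at 0.015. In aTreg cells 1 follicular gene was called higher and 2 lower. In lists this short each count rests on few genes, and nothing is read from these counts about a lineage. Without the replicate block the calls in aTreg cells fell to 1 of the Th1, 0 of the Th2, 1 of the Th17 and 1 of the follicular genes in edgeR, and those in rTreg cells were 2 of the Th1, 2 of the Th2, 0 of the Th17 and 2 of the follicular genes. Of all genes of these companion lists called between genotypes, 4 of 21 in rTreg cells and 9 of 17 in aTreg cells kept their call whichever library was left out. Cxcr5 and Irf8 were among the 4, and Bach2, Gata1, Jun, Cxcr3, Klrg1, Ccr7, Il18rap and Il6st among the 9, while Fosl2 and Ccr6 lost theirs in aTreg cells in 7 and 6 of the 8 fits and Tcf4 in rTreg cells in 6.

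The genes most like each factor over the 8 libraries were found by the root mean square difference of the centred log2(CPM + 1) profiles among 10149 genes with a mean of at least 5 CPM. The closest to any factor was Fam129a to Prdm1, at 0.077, with 61.3 and 65.8 CPM in WT rTreg, 63.3 and 77.1 in Foxp1-deficient rTreg, 360 and 326 in WT aTreg and 494 and 583 in aTreg cells without Foxp1. Cyfip1 came next for Prdm1 at 0.13. Gata3 was closest to Pnkd at 0.10 and Prnp at 0.11, and Bcl6 to Hnrnpll and Cbx6, both at 0.11. Batf was closest to Galm at 0.14, Tbx21 to Map2 at 0.15, Id2 to Sntb2 at 0.16 and Irf4 to Ksr1 at 0.18. Maf and Rora had the least close neighbours, Cpd at 0.22 and Susd2 at 0.23. Cpd, like Maf, was lower in both Foxp1-deficient rTreg libraries, at 3.03 and 2.67 CPM beside 4.61 and 4.16 CPM in WT, and between 79.7 and 87.2 CPM in the aTreg libraries. Among the members themselves the closest were Gata3 and Bcl6, at 0.22, and the farthest Maf and Bcl6, at 1.64. These values are descriptions over 8 libraries in which the subsets set most of the profile.

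All 9 factors are protein-coding genes in the GENCODE M21 annotation of GRCm38, and their counts were taken over exons. Prdm1 (ENSMUSG00000038151) lies at chr10:44437177-44528501 on the minus strand, Rora (ENSMUSG00000032238) at chr9:68653786-69388246 on the plus strand, Maf (ENSMUSG00000055435) at chr8:115682942-115707794 on the minus strand, and Gata3 (ENSMUSG00000015619) at chr2:9857078-9890034 on the minus strand. Genes that overlap Gata3, Rora or Bcl6 had at most 13 counts in any library, against at least 146 counts for these factors. Maf shares 440 exon bases with Gm15655, an antisense gene that is not among the 27594 genes of the deposited counts. The library kit as named in the labels does not mark strand, so reads of Maf and of this antisense gene cannot be told apart.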

How the data were processed

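RNA sequencing libraries of 8 samples in 4 groups of 2 were analysed. Upstream steps by the authors were quality checks (FastQC), trimming (trim_galore), removal of duplicates (Picard) and counting per gene (htseq-count) of paired-end reads. The submitters' processing notes name HISAT2 2.0.5, HTSeq and mm10. The authors deposited raw counts per gene and FPKM values, each equal to the count divided by the library total and 1 length per gene, so levels between genes depend on that length. Removing duplicates can lower the counts of abundant genes. Gene symbols were taken from the deposited table and coordinates from GENCODE M21. Promoter sequences are from RefSeq.

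Counts were fitted in R 4.3.3 with edgeR 4.0.16 (TMM, filterByExpr with a minimum count of 10, glmQLFit and glmQLFTest) over all 8 libraries, with a mean per group, the replicate number as a block, and Benjamini-Hochberg adjustment over 14540 genes. Calls required an adjusted p under 0.05 together with a change of 1.5-fold or more (genotypes) or of 2-fold or more (subsets). The difference of the genotype effects was called at the adjusted p alone. Pair values use a prior count of 2. The block follows the paired analysis of the study. Same-numbered libraries deviated from their group means together with correlations across genes of 0.355 to 0.597. The correlation was 0.597 between the WT subsets and 0.548 between the Foxp1-deficient subsets, and 0.355 to 0.462 across genotypes. The block is shared by both genotypes and does not model the closer link within a genotype. The libraries of a group differed by more than counting noise. The floor of 3 counts covers counting error only, since the reads carry no molecular identifiers.

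The members and lists were chosen with earlier results of these data known. Named were all 9 members, from each list at most the 2 called genes with the largest rise and the 2 with the largest fall among those that moved the same way in both pairs, and for each member the 2 most similar genes. Igkc, Sdc1, Klrb1c, Ncr1 and other markers, Il10, Bach2 with its counts and the genes of a lost call were named after their values were seen. The alternatives were a fit without the block, median-of-ratios size factors, DESeq2 1.42.0, limma-voom 3.58.1, no filter, a 1 CPM filter in 2 libraries, thinning to the shallowest library, the libraries of the comparison alone, leaving out each library, and TMM CPM per kilobase for the order of levels. GENCODE lengths for that order were added after seeing the data. The pipeline was tested on simulated data. Results for some further genes are not reported here.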

Additional observations from a re-analysis of the deposited data

Results flagged for a closer look

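Gata3 was flagged because its genotype effects had opposite signs in the subsets. In rTreg cells both replicate pairs were lower without Foxp1, by -0.14 and -0.070 on the log2 scale, and in aTreg cells both were higher, by 0.28 and 0.48. Neither effect was called, and the 95% interval of the rTreg effect ran from -0.26 to 0.057. The difference of the effects was 0.48, with an adjusted p of 0.0822 in the interaction term of the edgeR fit after Benjamini-Hochberg adjustment. Over the alternatives the adjusted p ran from 0.00368 without the filter on low counts to 0.956 without the replicate block.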

How the results depend on the processing

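The rise of the factors in aTreg cells kept its direction in every alternative run, and 7 to 9 of 9 were called in each (Bcl6 was lost in WT without WT aTreg replicate 1, at 0.90, and Irf4 in Foxp1-deficient cells without Foxp1-deficient rTreg replicate 2, at 0.86). Between genotypes the calls rest on few libraries. In rTreg cells 1 factor was called in every alternative that used all libraries or those of the comparison, and 0 to 2 when 1 library was left out. In aTreg cells 2 factors were called in the reported fit, 0 without the replicate block, 1 after thinning to the shallowest library and 1 in the libraries of the comparison alone (Rora in both), and 0 to 2 when 1 library was left out; with no filter on low counts Tbx21 was added. For the difference of the genotype effects 0 were called in the reported fit, 2 in DESeq2 and with no filter, and 0 to 1 when 1 library was left out. The block changed no other call of a member. Small effects changed sign: Bcl6 in rTreg cells was -8.42e-05 with median-of-ratios size factors, -0.0044 in DESeq2 and -0.0052 with no filter, Prdm1 in rTreg cells was -0.080 after thinning, and Bcl6 in aTreg cells was 0.0015 in limma-voom; the causes were not tested. With 1 library left out the log2 values that changed sign spanned, in rTreg cells Prdm1 -0.24 to 0.18, Batf -0.16 to 0.49, Irf4 -0.13 to 0.33, Rora -0.013 to 0.54, Tbx21 -0.12 to 0.86, Bcl6 -0.11 to 0.10, in aTreg cells Maf -0.067 to 0.36, Bcl6 -0.28 to 0.23, Id2 -0.028 to 0.18, and for the difference Batf -0.21 to 0.47, Tbx21 -0.31 to 0.79, Bcl6 -0.28 to 0.23. The order of levels kept 34 of 36 places with TMM CPM per kilobase and 26 with GENCODE lengths, where only Batf, Irf4 and Id2 have another length. Depth limits Tbx21 in rTreg cells, at 4 to 18 counts.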
